A study of Homo sapiens with 2 samples.

Results

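The genes described here are the 7 cyclin-dependent kinase (CDK) inhibitor genes CDKN1A, CDKN1B, CDKN1C, CDKN2A, CDKN2B, CDKN2C and CDKN2D, with MDM2 and GDF15, genes that p53 is known to induce. They were chosen by symbol, 9 of the 58174 genes in the table, and all 9 were found and averaged at least 1 TPM over the libraries. TPM is an abundance scaled by transcript length and by the total of the library. RNA was sequenced from PC3, a human prostate cancer cell line. There were 2 libraries, 1 from cells transfected with control siRNA and 1 from cells transfected with POH1 siRNA, an siRNA against the proteasome deubiquitinase gene PSMD14. With 1 library per group there is no replicate error and no test, so every difference below is one between these libraries.

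CDK inhibitors hold back the cell cycle in different ways. Proteins of the Cip/Kip family (p21, p27 and p57, from CDKN1A, CDKN1B and CDKN1C) bind complexes of cyclins with several CDKs, CDK2 above all. Those of the INK4 family (p16, p15, p18 and p19, from CDKN2A, CDKN2B, CDKN2C and CDKN2D) bind CDK4 and CDK6 and keep D-type cyclins away from them; when these kinases are held inactive, RB proteins stay bound to E2F factors. The transcription factor p53 induces CDKN1A, MDM2 and GDF15 after DNA damage; MDM2 is the ubiquitin ligase that marks p53 for the proteasome, and GDF15 is a secreted stress hormone of the TGF-beta superfamily. PC3 cells are known to lack functional p53, so in this line these genes are read out without p53 as an inducer.

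The targeted gene, PSMD14, was at 50.9 TPM with control siRNA and 35.1 TPM with POH1 siRNA, a log2 difference of -0.52 that was -0.24 after adjustment for GC content. The difference of -0.52 is short of 1.5-fold, and 10.7% of genes averaging at least 1 TPM were as low or lower. Of the epithelial markers, EPCAM (124 and 141 TPM, control first here and below), CDH1 (111 and 129 TPM), KRT8 (517 and 556 TPM), KRT18 (455 and 454 TPM) and KRT19 (1499 and 1734 TPM) were high, and the basal keratin KRT5 was at 0.136 and 0.169 TPM. The prostate lineage gene HOXB13 was at 102 and 104 TPM and TMPRSS2 at 9.89 and 12.9 TPM, whereas FOLH1 was at 1.29 and 0.402 TPM, and the prostate kallikrein genes KLK2 and KLK3, defining markers of the secretory prostate cell, were listed at 0 in both libraries. VIM (482 and 421 TPM), CD44 (486 and 531 TPM) and CAV1 (136 and 137 TPM) were high. Of the markers of fibroblasts, blood cells and endothelium, COL1A1 stood at 30.9 and 47.8 TPM, PECAM1 at 4.90 and 3.88 TPM, CD14 at 1.59 and 2.11 TPM and CDH5 at 1.05 and 0.653 TPM; COL1A2, DCN, PDGFRB, PTPRC and VWF stayed under 1 TPM, and CD3E was listed at 0.

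Differences are given on the log2(TPM + 1) scale, POH1 siRNA less control siRNA. They are smaller there than on the scale of TPM ratios for low genes. In the 15008 genes that averaged at least 1 TPM, called all genes below, the median difference was 0.12, and 61.2% of them had a difference above 0. Genes past 1.5-fold on this scale are called higher or lower: 10.2% of all genes were higher in the POH1 siRNA library and 8.88% lower, so that 53.5% of the genes counted were higher. That share was 34.2% (960 genes higher and 1845 lower) with the libraries scaled to a median ratio of 1. This scaling moves differences of abundant genes down by about 0.14 and those of low genes by less. Differences also went with GC content, with a median of -0.24 in genes of up to 40% GC and 0.31 in genes above 60% and up to 65% GC. Each member is therefore also given with this trend subtracted (GC-adjusted). The trend was taken from genes averaging at least 5 TPM and subtracted in full from lower genes too. GC-adjusted values of genes under 5 TPM are therefore uncertain: GFRAL, at 0 TPM in both libraries, was given 0.35. On the GC-adjusted scale the median of all genes was 0.15, 12.6% of them were 1.5-fold higher and 5.19% lower (70.8% of those counted higher). The part of GC content in the results was not tested.

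Promoters of 3 members are shown because they bear on how these genes are read in a line without p53. The RefSeq promoter table (GRCh38.p14; 250 bases before to 50 after a start) held windows for 8 of the 9 genes, CDKN1C being the one without, and 14 windows in all. They were searched on both strands for the p53 full site, a pair of adjoining decamers, allowing 3 mismatches in 20 bases but none at the central C and G of either decamer; this rule was set after the windows had been seen. Of all 35116 windows in the table, 1.12% held such a match. The inner of the MDM2 starts (chr12:68808767-68809066, plus strand), the promoter known for its response to p53, held a match with 2 mismatches at position -94 from the start, in capitals below; the outer MDM2 starts held none. GDF15 (chr19:18385908-18386207, plus strand) held one with 3 mismatches at position +29, also in capitals. CDKN1A (chr6:36678464-36678763, plus strand) held none in this window, and its known p53 sites lie further upstream; it held 4 GC boxes (GGGCGG, on either strand), which 45% of all windows hold at least once. CDKN1B had a match with 3 mismatches at position -231 (not shown). No member's window held the ATF4 composite element (TGATGNAA, either strand). Only 3.62% of all windows hold it, so its absence from 14 windows is no result about these genes.
MDM2, inner start: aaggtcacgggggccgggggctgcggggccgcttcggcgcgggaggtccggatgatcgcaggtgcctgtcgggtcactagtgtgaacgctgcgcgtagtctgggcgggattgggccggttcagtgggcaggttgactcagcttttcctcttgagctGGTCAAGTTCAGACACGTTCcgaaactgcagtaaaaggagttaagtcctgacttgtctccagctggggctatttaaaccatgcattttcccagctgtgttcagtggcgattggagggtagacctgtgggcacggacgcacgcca
GDF15: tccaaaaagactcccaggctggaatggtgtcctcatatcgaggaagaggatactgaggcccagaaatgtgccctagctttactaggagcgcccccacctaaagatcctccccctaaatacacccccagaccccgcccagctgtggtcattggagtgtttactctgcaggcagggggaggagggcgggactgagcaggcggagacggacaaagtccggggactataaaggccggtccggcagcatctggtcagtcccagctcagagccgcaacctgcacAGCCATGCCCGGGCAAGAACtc
CDKN1A: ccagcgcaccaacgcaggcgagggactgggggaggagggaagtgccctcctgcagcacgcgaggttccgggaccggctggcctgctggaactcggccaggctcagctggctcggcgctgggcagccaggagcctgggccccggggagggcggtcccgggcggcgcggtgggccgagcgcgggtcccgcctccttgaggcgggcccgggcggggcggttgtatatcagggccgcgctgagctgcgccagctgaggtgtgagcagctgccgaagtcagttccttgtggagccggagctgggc

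The 3 Cip/Kip genes all had higher values in the POH1 siRNA library, by similar amounts. CDKN1A, which encodes p21, was by far the most abundant, at 105 TPM after control siRNA and 147 TPM after POH1 siRNA. That is 1.40-fold higher, a log2 difference of 0.48, which 15.7% of all genes reached or passed. In bulk RNA, a change in the cells that express a gene and a change of its RNA per cell cannot be told apart. CDKN1B, which encodes p27, was at 6.91 and 10.5 TPM, 1.53-fold higher as a ratio and 0.55 on the log2(TPM + 1) scale, just short of the 1.5-fold count there. CDKN1C, which encodes the imprinted inhibitor p57, was at 7.46 and 11.8 TPM, 1.59-fold higher (log2 difference 0.60). Only CDKN1C of these 3 passed 1.5-fold on the log2(TPM + 1) scale, as 10.2% of all genes did in this direction. The 2 less abundant genes differ in base composition, with a GC content of 46.4% in CDKN1B and 63.3% in CDKN1C, and after GC adjustment their order turned: CDKN1B was at 0.72, CDKN1C at 0.42 and CDKN1A at 0.33. With the libraries scaled to a median ratio of 1, CDKN1C was at 0.48 and none of the 3 passed 1.5-fold. All 3 stayed above 0, and above the median of all genes, with and without the adjustment.

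Makeup within the family hardly shifted. CDKN1A made up 88.0% of the summed TPM of the Cip/Kip genes in the control library and 86.8% in the POH1 siRNA library, CDKN1B 5.79% and 6.23%, and CDKN1C 6.25% and 6.99%. The sum itself was 119 and 169 TPM, 1.42-fold higher. In both libraries p21 was thus the main Cip/Kip message of PC3, with more than 10 times the TPM of either relative.

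**Figure D1:**
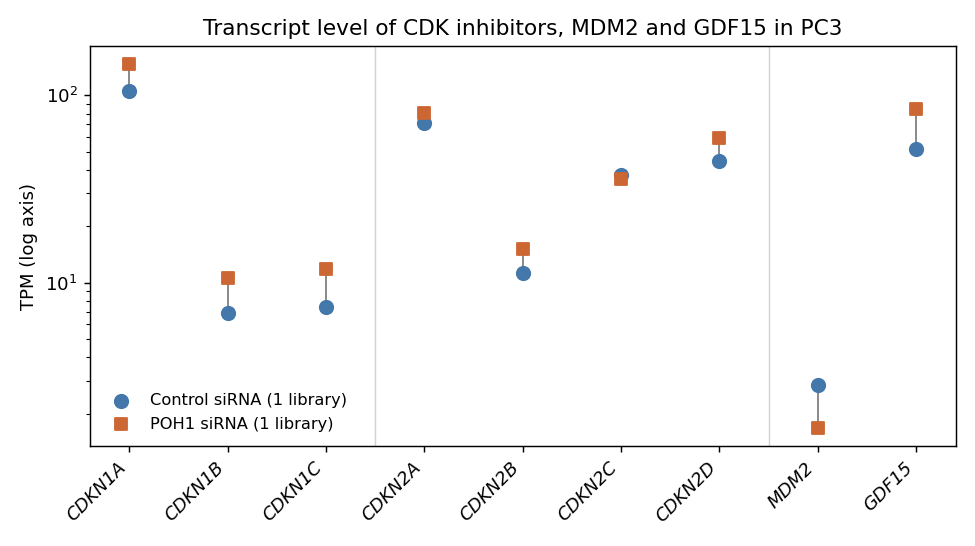
TPM (log axis) of the 9 genes in the control siRNA library (circles) and the POH1 siRNA library (squares), 1 library each, with lines joining the values of a gene and grey lines separating Cip/Kip genes, INK4 genes, and MDM2 with GDF15. CDKN1A is the highest in both libraries (105 and 147 TPM) and MDM2 the lowest (2.83 and 1.67 TPM), and the square lies below the circle for MDM2 and CDKN2C only.

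The median difference of the INK4 genes (0.29) lay closer to that of all genes (0.12) than did that of the Cip/Kip genes (0.55). CDKN2D and CDKN2B, at 0.40 each, were still near CDKN1A at 0.48. CDKN2A was the most abundant INK4 gene, at 70.8 and 80.4 TPM, 1.13-fold higher. Its log2 difference of 0.18 is near the median of all genes, and it was 0.011 after GC adjustment. The gene makes p16 from one promoter and p14ARF, an inhibitor of MDM2, from another upstream of it; the table gives 1 value per gene, so these transcripts cannot be told apart. CDKN2D, which encodes p19, was at 44.5 and 59.2 TPM (log2 difference 0.40, GC-adjusted 0.24). CDKN2B, which encodes p15 and is known as a target of TGF-beta signalling, was at 11.3 and 15.1 TPM (0.40, GC-adjusted 0.28). CDKN2C, which encodes p18, was the single inhibitor gene with a lower value, at 37.6 and 35.8 TPM (-0.069, GC-adjusted -0.13). None of the 4 passed 1.5-fold in either direction, where 10.2% of all genes were higher and 8.88% lower. Differences as high as those of CDKN2D and CDKN2B were reached by 21.4% and 21.9% of all genes.

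Their summed TPM was 164 in the control library and 191 in the POH1 siRNA library, 1.16-fold higher. CDKN2A held 43.1% and 42.2% of it, CDKN2D 27.1% and 31.1%, CDKN2C 22.9% and 18.8%, and CDKN2B 6.86% and 7.95%. At the 9p21 locus, neighbours of CDKN2A and CDKN2B were measured too: MTAP, a methionine salvage enzyme gene, was at 5.63 and 6.19 TPM and the antisense RNA CDKN2B-AS1 at 0.558 and 0.284 TPM. CDKN2B-AS1 overlaps exons of CDKN2A on the opposite strand, and the use of strand is not given in the sources used here, but its TPM was under 1% of that of CDKN2A.

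Of the 7 inhibitors together, 6 had a higher value in the POH1 siRNA library, where 61.2% of all genes did. Only 1 passed 1.5-fold upward, beside 10.2% of all genes. With MDM2 and GDF15 included, 2 of the 9 genes were higher and 0 lower (all genes: 10.2% and 8.88%). The summed TPM of the 7 inhibitors was 284 and 360, 1.27-fold higher. The order of abundance was the same in both libraries: CDKN1A, CDKN2A, CDKN2D, CDKN2C, CDKN2B, CDKN1C and CDKN1B. GDF15 stood between CDKN2A and CDKN2D in the control library and between CDKN1A and CDKN2A in the POH1 siRNA library. Neighbours in this order cannot be set against a spread, because no library was repeated; CDKN1C and CDKN1B, at 7.46 and 6.91 TPM in the control library, were the closest pair.

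**Figure D2:**
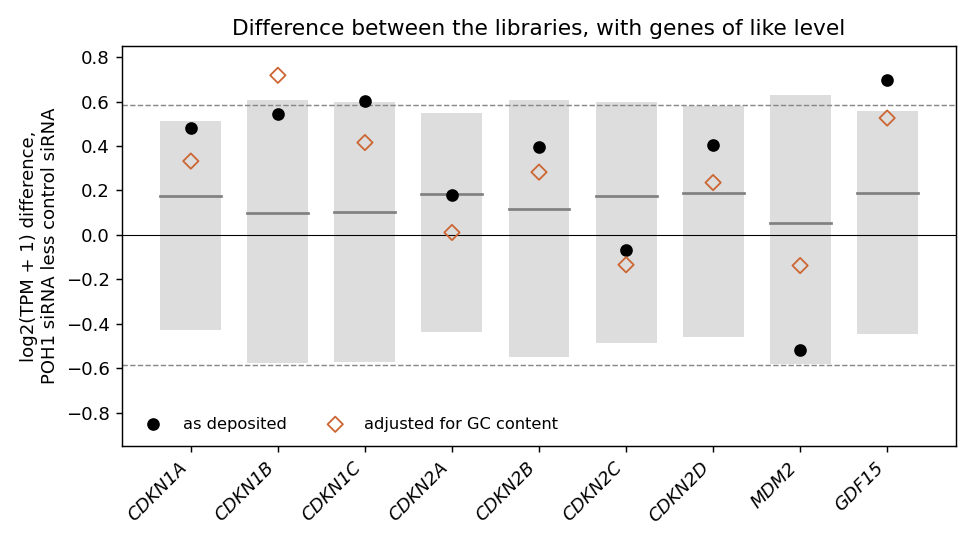
Log2(TPM + 1) difference of each gene, POH1 siRNA less control siRNA, as deposited (filled circles) and adjusted for GC content (open diamonds). Grey bars span the 10th to 90th percentile of genes within 2-fold of the same mean TPM, the line in each bar is their median, and dashed lines mark 1.5-fold; GDF15 (0.70) and CDKN1C (0.60) lie above their bars as deposited, and CDKN1B (0.72) does so after adjustment, the bars being those of unadjusted differences.

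MDM2 went the other way from CDKN1A and GDF15, the other p53 targets among the 9 genes. Its level was 2.83 TPM after control siRNA and 1.67 TPM after POH1 siRNA, 1.69-fold lower as a ratio. On the log2(TPM + 1) scale the difference was -0.52, short of 1.5-fold, and 10.98% of all genes were as low or lower. MDM2 has the lowest GC content of the 9 genes, 40.8%, and its GC-adjusted difference was -0.14. That value is uncertain, because MDM2 averaged under the 5 TPM from which the GC trend was taken. Scaled to a median ratio of 1 it was at -0.60, past 1.5-fold. It overlaps CPM on the opposite strand (2.31 and 0.824 TPM), so reads of the shared bases cannot be assigned to one of them without strand. A pseudogene inside the MDM2 locus shares exon sequence with it (0.192 and 0.132 TPM), and the summed difference was also -0.52. MDM4, which encodes the MDM2 relative that binds and restrains p53, was at 2.498 and 3.21 TPM (0.27, GC-adjusted 0.64), so that the ratio of MDM2 to MDM4 was 1.13 and 0.521. This ratio was computed after the values were seen.

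Of the p53 relatives, TP63 was at 0.0224 and 0.113 TPM. TP73, which encodes a protein able to bind many of the same sites as p53, was at 1.47 and 3.99 TPM, a difference of 1.01 (GC-adjusted 0.83). TP73 shares exonic bases with TP73-AS1 on the opposite strand (17.1 and 21.5 TPM), so its value is uncertain. The list of p53 family members and regulators had 27 of 28 genes that averaged at least 1 TPM; 2 were at least 1.5-fold higher, 1 was lower and 24 lay within, beside 10.2% higher and 8.88% lower among all genes, with a median of -0.046 against 0.12. Beside TP73, the acetyltransferase gene CREBBP was higher (7.10 and 13.6 TPM), its relative EP300 was at 9.58 and 14.7 TPM, and the lower gene was the damage kinase gene ATM (3.81 and 0.856 TPM). ATM overlaps NPAT on the opposite strand (3.41 and 0.702 TPM).

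Known p53 target genes did not share a direction. Of 36 genes listed, CDKN1A, MDM2 and GDF15 included, 31 averaged at least 1 TPM; 2 of these (6.45%) were at least 1.5-fold higher and 4 (12.9%) lower, beside 10.2% and 8.88% of all genes. Their median difference was 0.075, and 20 of 31 (all genes: 61.2%) were above 0. The higher genes were GDF15 and SESN2 (13.4 and 20.9 TPM), a leucine sensor gene that ATF4 also induces. The lower ones were RPS27L, a ribosomal protein paralogue (23.6 and 10.6 TPM), TRIAP1, which encodes a small mitochondrial survival protein (26.7 and 15.1 TPM), PANK1, a coenzyme A synthesis gene (2.92 and 1.42 TPM), and SESN1 (1.64 and 0.661 TPM). PANK1 shares exon sequence with the pseudogene AL157400.5 (0.210 and 5.33 TPM), and their sum differed by 0.91, so its direction is uncertain. Several classic damage response genes had nearly equal values: BAX was at 92.3 and 96.3 TPM, GADD45A at 65.3 and 67.3 TPM, TP53I3 at 28.1 and 28.2 TPM, AEN at 23.3 and 24.3 TPM and TNFRSF10B at 51.6 and 54.4 TPM, all chosen after their values were seen. After GC adjustment 2 were higher, PMAIP1 (0.72) and CCNG1 (0.66), and RPS27L (-0.74) was the single lower one, so that neither GDF15 nor SESN2 passed.

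GDF15 had the largest difference of the 9 genes on the log2(TPM + 1) scale as deposited; as a TPM ratio that of MDM2 was larger, as was its difference with the libraries scaled to a median ratio of 1, and after GC adjustment that of CDKN1B was. Its level was 51.9 TPM after control siRNA and 84.6 TPM after POH1 siRNA, 1.63-fold higher. Its log2 difference of 0.70 was reached or passed by 6.64% of all genes, and by 5.26% of the 2907 genes within 2-fold of its mean TPM. Its GC content is 61.5%, and its GC-adjusted difference of 0.53 was short of 1.5-fold. So was the value of 0.56 with the libraries scaled to a median ratio of 1. The genes whose levels in the libraries were most like those of GDF15, by distance on the log2(TPM + 1) scale over these 2 points, were DGCR6L (52.6 and 84.6 TPM), ARFGAP1 (51.2 and 85.2 TPM) and EML3 (52.4 and 81.2 TPM).

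A further list held genes that induce GDF15 without p53, its receptor and co-receptor, furin-type proteases that can cleave its precursor, and MMP14. DDIT3, the stress factor CHOP, was at 38.1 and 63.0 TPM, a difference of 0.71 (GC-adjusted 0.77), and it overlaps MARS1 on the opposite strand (219 and 258 TPM). EGR1, an immediate early factor known to act on the GDF15 promoter, was at 1.39 and 3.50 TPM (0.92, GC-adjusted 0.86). ATF4, at 451 and 540 TPM (0.26), and ATF3, at 13.9 and 17.96 TPM (0.35), were within 1.5-fold. The receptor gene GFRAL and its co-receptor RET were listed at 0 in both libraries, and the furin protease gene FURIN was at 49.2 and 70.3 TPM. MMP14, a membrane metalloprotease gene, was at 161 and 218 TPM. In all, 2 of the 12 genes that averaged at least 1 TPM were 1.5-fold higher (DDIT3 and EGR1) and none was lower, beside 10.2% and 8.88% of all genes, and the median was 0.31. With the libraries scaled to a median ratio of 1, 1 was higher, beside 960 of all 15008 genes.

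Among other ligands of the TGF-beta superfamily, INHBA stood out in size. INHBA encodes the subunit of activin A and was at 40.8 and 95.1 TPM, a difference of 1.20 (GC-adjusted 1.31). The list also held BMP1, a protease gene and not a ligand. INHBA was the single one of the 11 genes averaging at least 1 TPM, of 29 listed, past 1.5-fold in either direction. That is near the 10.2% of all genes that were higher. Averaging below 1 TPM, INHBE had 0.307 and 1.13 TPM (0.71), a gene picked with its values known. TGFB1 was at 111 and 144 TPM, BMP4 at 5.23 and 7.45 TPM, and INHA at 2.24 and 3.22 TPM; the median was 0.22. TGFB1 overlaps HNRNPUL1 on the opposite strand (156 and 178 TPM). GDF15 was above INHBA in the control library (ratio 1.27) and below it in the POH1 siRNA library (ratio 0.890).

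**Figure D3:**
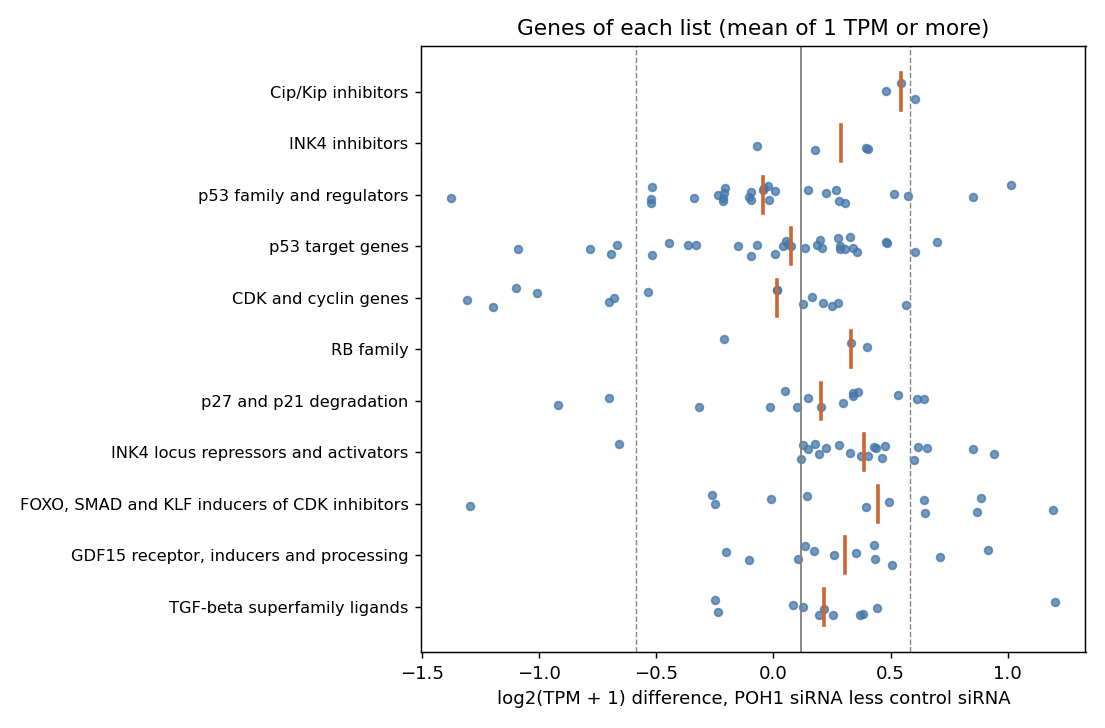
Log2(TPM + 1) difference, POH1 siRNA less control siRNA, of each gene averaging at least 1 TPM in the 11 lists (points, spread vertically for legibility), with the list median (thick line), the median of all genes (grey line, 0.12) and 1.5-fold (dashed lines). All 3 Cip/Kip genes lie above the median of all genes, p53 target genes lie on both sides of 0, and 6 CDK and cyclin genes lie below the 1.5-fold line.

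Of the kinases that the inhibitors bind, CDK4 and CDK2 showed larger differences than any of the 7 inhibitors. CDK4, the main INK4 partner by level, was at 255 TPM after control siRNA and 102 TPM after POH1 siRNA, 2.49-fold lower (log2 difference -1.31). Only 1.35% of all genes were as low or lower. CDK2, the main Cip/Kip partner, was at 93.2 and 40.1 TPM, 2.32-fold lower (-1.20), which 1.77% of all genes matched. Their GC content was 57.3% and 51.6%, and the GC-adjusted differences were -1.39 and -1.16. CDK4 shares exonic bases with TSPAN31 on the opposite strand (17.6 and 7.98 TPM); CDK2 overlaps PMEL there (2.36 and 3.14 TPM). CDK6, the other INK4 partner, was at 4.58 and 5.64 TPM, so that CDK4 and CDK6 summed to 259 and 108 TPM.

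Set against these partners, the inhibitor messages were more abundant in the POH1 siRNA library. The INK4 sum over the sum of CDK4 and CDK6 was 0.633 in the control library and 1.76 in the POH1 siRNA library. CDKN2A, 43.1% and 42.2% of the INK4 sum, is counted in full. Its value does not separate p16 from p14ARF, the inhibitor of MDM2, so the ratio may be too high in both libraries. The Cip/Kip sum over CDK2 was 1.28 and 4.22. Most of each shift came from the kinase: the log2 ratio between libraries was -1.26 for CDK4 plus CDK6 and 0.21 for the INK4 sum, and -1.22 for CDK2 and 0.50 for the Cip/Kip sum. A ratio of genes within a library does not change with the scaling of that library. These ratios were computed after the values were seen, they are of transcripts and not of proteins, and they have no replicate check.

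The list of CDK and cyclin genes, which also held MNAT1, had 15 members averaging at least 1 TPM, and CCND2 was listed at 0. None was 1.5-fold higher and 6 were lower, where 8.88% of all genes were; 4 of the 6, CDK4, CDK2, CCNB2 and CDK7, were at least 2-fold lower, as were 2.93% of all genes. The mitotic cyclin CCNB2 was at 45.8 and 20.9 TPM, and CDK7, the kinase that activates other CDKs, at 26.7 and 12.7 TPM. The A-type cyclins CCNA1 (17.0 and 10.1 TPM) and CCNA2 (12.9 and 7.69 TPM) were the remaining lower genes. D- and E-type cyclins, which pair with the kinases the INK4 and Cip/Kip proteins bind, did not pass 1.5-fold on the log2(TPM + 1) scale: CCND1 at 181 and 197 TPM, CCND3 at 52.7 and 64.0 TPM, CCNE1 at 21.3 and 21.5 TPM and CCNE2 at 0.838 and 1.72 TPM, a difference of 0.57 there but 2.06-fold as a ratio. CCNE2 shares exonic bases with INTS8 on the opposite strand (23.7 and 12.1 TPM), so its value is uncertain. The list median was 0.016, and it was -0.26 over the genes that averaged at least 5 TPM. After GC adjustment, 5 of the 6 were still 1.5-fold lower, CCNA2 being the exception, while CCNE2 (0.98) and CCNH (0.62) were higher. The adjusted value of CCNE2 is also uncertain because CCNE2 averaged under the 5 TPM from which the GC trend was taken.

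**Figure D4:**
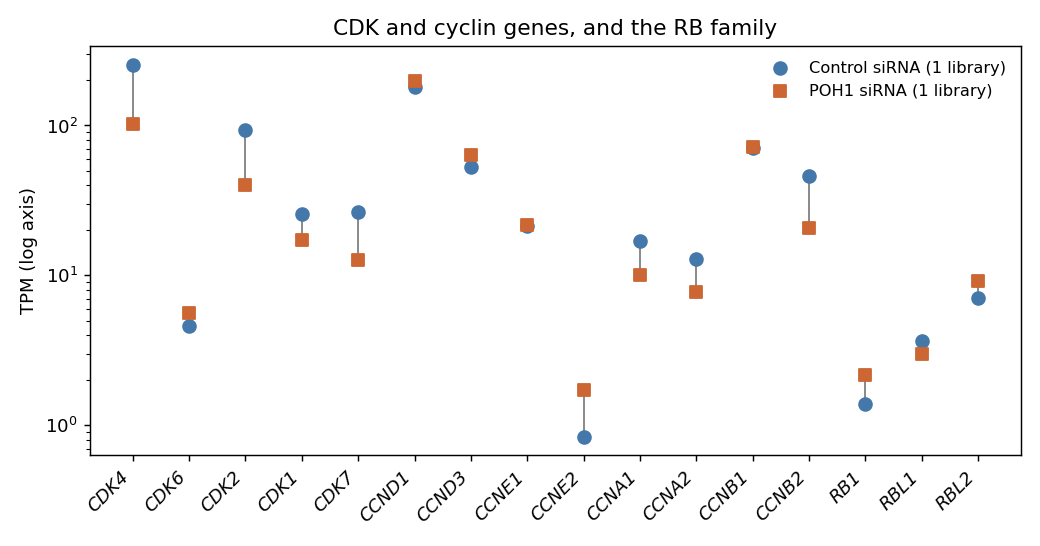
TPM (log axis) of CDK genes, cyclin genes and the RB family in the control siRNA library (circles) and the POH1 siRNA library (squares), 1 library each, with a line joining the values of a gene. The longest lines downward are those of CDK4 (255 and 102 TPM), CDK2 (93.2 and 40.1 TPM), CCNB2 and CDK7, and the circles and squares of CCND1, CCNE1 and CCNB1 nearly coincide.

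The RB family, whose proteins the kinases phosphorylate, was low and within 1.5-fold. RB1 was at 1.39 and 2.15 TPM, RBL1 at 3.63 and 2.998 TPM and RBL2 at 7.09 and 9.17 TPM. With GC adjustment RB1 (0.84) and RBL2 (0.70) passed 1.5-fold. That value of RB1 is uncertain, because RB1 averaged under the 5 TPM from which the GC trend was taken. RBL2 shares exonic bases with AKTIP on the opposite strand (12.9 and 10.2 TPM), so its value is uncertain too.

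Ubiquitin ligase genes that send p27 and p21 to the proteasome lay on both sides. SKP2, the F-box protein that recognises p27, was at 7.78 and 12.4 TPM (0.61), and CUL4B, a scaffold of the ligase that marks p21 during replication, at 5.05 and 8.43 TPM (0.64). SKP1, the adaptor of SKP2, was at 68.4 and 35.8 TPM (-0.92), the RING subunit gene RBX1 at 75.8 and 46.3 TPM (-0.70), and CKS1B, the cofactor for p27, at 406 and 325 TPM (-0.32). Of 15 genes, 2 were 1.5-fold higher and 2 lower, beside the 10.2% and 8.88% of all genes, and the median was 0.21. After GC adjustment 5 were higher and none lower (12.6% and 5.19% of all genes), with SKP1 and RBX1 within 1.5-fold on that scale.

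Genes that repress or activate the INK4 locus, listed together with its neighbour MTAP, mostly had higher values. Of 20 genes that averaged at least 1 TPM, 5 were 1.5-fold higher, 1 was lower and 19 were above 0, beside 10.2%, 8.88% and 61.2% of all genes. The median was 0.39 (0.42 GC-adjusted). With the libraries scaled to a median ratio of 1, 2 genes were higher, beside 960 of all 15008 genes. The Polycomb gene BMI1, a repressor of CDKN2A, was at 19.7 and 36.4 TPM (0.85), while the histone demethylase gene KDM6B, which opposes Polycomb there, was at 6.64 and 13.7 TPM (0.94). A repressor and an activator of the locus thus both had higher values. ETS1, an activator of p16, was at 19.1 and 30.6 TPM (0.66), and EZH2, the Polycomb methyltransferase, was at 28.4 and 17.7 TPM (-0.66) but not 1.5-fold lower after GC adjustment. EED (3.72 and 6.15 TPM) was also among the higher genes.

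Transcription factors that act on CDKN1A, CDKN1B and CDKN2B without p53 made up the last list. Of 12 genes, 5 were 1.5-fold higher and 1 was lower, beside 10.2% and 8.88% of all genes, with a median of 0.44 against 0.12. With the libraries scaled to a median ratio of 1, 3 were higher, beside 960 of all 15008 genes. KLF6, which can induce CDKN1A, was at 7.41 and 18.2 TPM (1.19), and SMAD3, the TGF-beta effector upstream of CDKN2B and CDKN1A, at 73.4 and 137 TPM (0.89). MYC, which represses CDKN1A and CDKN2B together with ZBTB17, was at 4.69 and 9.38 TPM (0.87). SMAD4 and ZBTB17 were also higher, FOXO3, an inducer of CDKN1B, was at 4.03 and 4.57 TPM (0.15), and SP3 was the lower gene, at 14.6 and 5.36 TPM (-1.30). Inducers and repressors of the inhibitors were thus both among the higher genes.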

How the data were processed

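RNA of PC3 cells was sequenced from 1 library per group, control siRNA and POH1 siRNA. The authors deposited TPM per gene; CASAVA, HISAT2 and hg19 are named per the submitters' processing notes, and no source used here gives the annotation, the quantifier, the use of strand or the depth. The columns sum to 999955 and 999968 TPM. TPM keeps no depth, so no counting interval is given. Of 58174 Ensembl identifiers, 57392 were given a symbol from a name table. GENCODE release 29 (GRCh38, not hg19) was used for GC content, known for 99.8% of the 15008 genes that averaged at least 1 TPM, and for overlapping genes; promoter coordinates are those of RefSeq on GRCh38.p14.

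Differences are log2(TPM + 1), POH1 siRNA less control siRNA, with no test. GC adjustment subtracted a running median over 501 genes of at least 5 TPM and added back their overall median. The calculations used Python 3.11.15 and pandas 2.3.3. Only the GC adjustment and the 1.5-fold calls were tested on simulated data, with a GC trend given to genes of every level. That setting cannot show how the adjustment acts on genes under 5 TPM if their trend differs. The members, 11 gene lists and 6 marker lists were chosen with earlier results of these data known. Named were all members, PSMD14, a fixed set of regulators, partners and markers, the 4 genes with the largest difference in each list, other genes past 1.5-fold or overlapping a named gene, and the 3 genes nearest to GDF15. Some genes that these rules name are left out of the text. A planned comparison of protein sequences was not made. The alternatives were pseudocounts of 0.1 and 5, no filter, a filter at 5 TPM, scaling by the median or by a trimmed mean of log2 ratios (30% trimmed at each end), TPM recomputed after leaving out mitochondrial genes and the 50 genes of highest level, the GC adjustment, and sums over genes that share same-strand exons.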

Additional observations from a re-analysis of the deposited data

How the results depend on the processing

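Each result was recomputed under up to 9 alternatives. With no replicates, a difference was taken to move when it crossed 1.5-fold or shifted by 0.2 or more on the log2 scale, and a count when it shifted over 1.5 times. Of differences past 1.5-fold, only that of PANK1 changed sign, from -0.69 to 0.91 when summed with the pseudogene that shares its exon sequence; for genes other than the 9 this sum was added after seeing the data. CDKN1A (0.33 to 0.48), CDKN2A (0.011 to 0.18), CDKN2B (0.27 to 0.42), CDKN2C (-0.20 to -0.062) and CDKN2D (0.24 to 0.41) did not move, nor did the direction of any of the 9 genes; CDK4 (-1.44 to -1.28) and CDK2 (-1.33 to -1.12) stayed at least 2-fold lower. The causes of the shifts below were not tested. Of the 15008 genes, 2101 were counted higher and 1770 lower with a pseudocount of 0.1, and 636 and 668 with one of 5. These counts were 960 and 1845 with median scaling and 1004 and 1796 with trimmed mean scaling. Without the most abundant genes they were 1345 and 1702, and GC-adjusted 1886 and 778. Among genes kept by the filter at 5 TPM they were 952 and 855, and without a filter 1976 and 1750. TPM keeps no depth, so the precision of low genes such as MDM2 is unknown. No paired analysis was possible because each group has 1 library; leaving out a replicate was not possible for the same reason.

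With a pseudocount of 0.1, CDKN1B was at 0.60 and MDM2 at -0.72, so that 1 of the 9 genes and 3 p53 regulators were counted lower, and 2 Cip/Kip, 1 CDK or cyclin and 1 RB family gene higher. With a pseudocount of 5, CDKN1C was at 0.43 and MDM2 at -0.23; higher were 1 of the 9 genes, 0 Cip/Kip genes, 1 p53 regulator, 1 p53 target, 0 genes of p27 and p21 degradation, 2 INK4 locus genes, 3 FOXO, SMAD and KLF genes and 1 gene of the GDF15 list, and lower were 2 p53 targets and 0 INK4 locus genes. With median scaling and with trimmed mean scaling, which lowered differences, those of low genes least, CDKN1C was at 0.48 and 0.49, MDM2 at -0.60 and -0.59, GDF15 at 0.56 and 0.57 and PSMD14 at -0.66 and -0.65. Under both, 0 of the 9 genes, 0 Cip/Kip genes, 0 p53 targets and 0 genes of p27 and p21 degradation were higher, 2 INK4 locus genes and 3 FOXO, SMAD and KLF genes were higher, and 1 of the 9 genes and 4 p53 regulators lower; 1 gene of the GDF15 list was higher with median scaling. With mitochondrial genes and the 50 genes of highest level left out, CDKN1C was at 0.55, MDM2 at -0.62 and PSMD14 at -0.60; higher were 1 of the 9 genes, 0 Cip/Kip genes, 1 p53 target, 1 CDK or cyclin gene, 1 gene of p27 and p21 degradation and 3 INK4 locus genes, and lower were 1 of the 9 genes and 4 p53 regulators. GC-adjusted, CDKN1B was at 0.72, CDKN1C at 0.42, MDM2 at -0.14, GDF15 at 0.53, PSMD14 at -0.24 and the RB family median at 0.70; higher were 1 of the 9 genes, 4 p53 regulators, 2 CDK or cyclin genes, 2 RB family genes and 5 genes of p27 and p21 degradation, and lower were 1 p53 target, 0 genes of p27 and p21 degradation and 0 INK4 locus genes. With a filter at 5 TPM, 1 p53 regulator and 1 gene of the GDF15 list were higher, 0 p53 regulators and 2 p53 targets lower, and the CDK and cyclin median was -0.26. Without a filter, 2 TGF-beta superfamily ligands were higher. Of 478 values for other named genes, 63 moved and 1 more, that of PANK1, changed sign from a difference past 1.5-fold. Sign changes of smaller differences were not counted as such, and some occurred, as for RBL1 (-0.21, GC-adjusted 0.17).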
